A study of Mus musculus with 6 samples.

Results

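The genes described here mark the glial cells of the retina, namely Mueller glia and retinal astrocytes. The 10 genes were Car2, Vim, Glul, Rlbp1, Apoe, Clu, Aqp4, Abca8a, Gfap and Pdgfra, and every probe set that the platform annotation pairs with one of these symbols was taken, whatever its suffix. This gave 19 of the 22626 probe sets that are not controls, and 10 of 12393 named genes. RNA came from whole retinas of mice at postnatal day 4 (P4), of a mixed C57/129 background, with 3 Nhlh2 knockout and 3 wildtype mice, each on 1 Affymetrix GeneChip mouse array. By the design, knockout and wildtype mice of the same replicate number were littermates. Nhlh2 encodes a basic helix-loop-helix transcription factor. No probe set was paired with Nhlh2, so its own level was not analysed here and the genotype labels could not be checked with it. The label gives no further detail of the knockout allele, and no treatment is named for either group.

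Mueller glia are the radial glia of the retina and the last cell type that its progenitors form. They span the full depth of the tissue, recycle glutamate, carry retinoids for the cones, move water and ions and supply lipids to neurons. At P4 many progenitors still divide in the mouse retina, and progenitors share several genes with young Mueller glia. Astrocytes do not arise from these progenitors. They enter from the optic nerve, express the receptor Pdgfra and spread over the inner surface of the retina ahead of the blood vessels. Car2 and Vim were taken as early markers, present in progenitors or young glia, Glul, Rlbp1, Apoe, Clu, Aqp4 and Abca8a as late markers of mature Mueller glia functions, and Gfap and Pdgfra as astrocyte markers.

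The array of knockout replicate 2 stood apart from the other 5. Its median signal was 9.0, against 51.3 to 95.5 in the others, and the ratio of the 3′ to the 5′ probe set was 274 for Actb, against 1.38 to 1.56. Its Spearman correlation with any other array, across probe sets, was at most 0.669, whereas the lowest among the other 5 was 0.947. Genotype comparisons of the members and of the gene lists are therefore given with and without this array. Wildtype replicate 1 held high signals of lens crystallins, with a summed normalized signal of 3930 for 7 lens genes, against 29.7 to 225 in the other arrays. Of 5 measured rod markers, 4 were above the median in all 3 wildtype arrays, with Nrl, a rod transcription factor, at the 99.4th percentile on average (SD 0.168, n = 3) and Sag, rod arrestin, at the 98.7th (SD 0.277, n = 3), while Gnat1, rod transducin, was below it in all 3, at the 33.8th (SD 1.71, n = 3).

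Because the genotypes differ in a basic helix-loop-helix factor, a class that binds the E-box CANNTG, the 250 bases before the annotated start were examined for the members in the RefSeq promoter table of GRCm38.p6. Of the members, 7 were matched and read, with 3 start sites for Apoe. Car2 and Clu were not in the table, and no sequence was used for Aqp4. The sequences of 3 genes are shown because the results below turn on them: Gfap for the knockout comparison, and Vim and Glul as the early and the late marker with several probe sets. E-boxes are in capitals.

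Gfap, chr11:102897201-102897450, minus strand: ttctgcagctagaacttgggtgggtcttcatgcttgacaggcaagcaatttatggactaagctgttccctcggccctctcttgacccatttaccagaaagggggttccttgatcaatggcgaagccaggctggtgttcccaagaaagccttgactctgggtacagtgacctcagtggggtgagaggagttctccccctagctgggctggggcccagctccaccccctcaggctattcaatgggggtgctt
Vim, chr2:13574061-13574310, plus strand: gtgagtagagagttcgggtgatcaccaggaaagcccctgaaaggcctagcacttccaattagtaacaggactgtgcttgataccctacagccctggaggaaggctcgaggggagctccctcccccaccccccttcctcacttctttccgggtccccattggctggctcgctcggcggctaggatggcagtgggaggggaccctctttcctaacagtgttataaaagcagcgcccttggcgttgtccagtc
Glul, chr1:153899679-153899928, plus strand: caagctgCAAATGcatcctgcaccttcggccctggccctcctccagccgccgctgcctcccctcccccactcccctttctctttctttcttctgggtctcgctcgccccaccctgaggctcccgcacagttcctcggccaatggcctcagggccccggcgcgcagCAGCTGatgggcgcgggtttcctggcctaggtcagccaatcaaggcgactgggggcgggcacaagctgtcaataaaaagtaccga

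The Glul window held 2 E-boxes, 243 and 85 bases before the start, and that at 85 was CAGCTG. Gfap and Vim held none. Pdgfra, Rlbp1 and 1 of the 3 Apoe windows held 1 each, and Abca8a held 3. CANNTG reads the same on both strands, CAGCTG is 1 case of it, and 66.2% of 32851 such windows held at least 1 CANNTG, while 13.0% held CAGCTG. A match is only a run of letters in this window.

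In the wildtype P4 retina, both early markers ranked above all 6 late markers in each array, by the highest probe set of each gene. However, 3 of the late markers followed within a few percentile points. Signals were not scaled between arrays, so each is given with its rank within the array, as the percentile of the probe set among all 22626. The signal of a probe set also depends on its probes, and ranks across genes are only an approximate order of transcript amounts. Where a gene had several probe sets, the one with the highest mean over the 6 arrays stands for it. Across the members, 13 of 19 probe sets and 7 of 10 genes were above the median in all 3 wildtype arrays, against 45.5% of all probe sets. A gene was counted by its highest probe set, so the count of genes is not matched to that share.

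Car2, a cytosolic carbonic anhydrase that converts CO2 to bicarbonate, had signals of 2568, 31.0 and 1894 in knockout replicates 1, 2 and 3, against 2448, 3371 and 2213 in wildtype replicates 1, 2 and 3. In wildtype retinas it ranked at the 98.1th percentile (SD 0.311, n = 3). Vim, the intermediate filament protein vimentin, had 2307, 397 and 1804.5 in knockout retinas and 2890.4, 3122 and 1864 in wildtype retinas on its highest probe set, 1438118_x_at. It ranked at the 98.0th percentile (SD 0.626, n = 3) in wildtype retinas, so the ranks of these 2 early markers overlapped.

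Glul, glutamine synthetase, which turns glutamate and ammonia into glutamine in Mueller glia, had signals of 1898, 122 and 2565 in knockout retinas, against 2094, 2555 and 1753 in wildtype retinas on 1426236_a_at. Rlbp1, the retinaldehyde-binding protein CRALBP of the visual cycle, had 1788, 129 and 1214 in knockout retinas and 1827, 2677 and 1455 in wildtype retinas. Apoe, the apolipoprotein that carries lipids out of glia, had 1571, 104 and 1309 in knockout retinas and 1405, 2358 and 1362 in wildtype retinas. These 3 late markers thus ranked beside the early ones, at the 97.5th (SD 0.305), 97.1th (SD 0.679) and 96.5th percentile (SD 0.811, n = 3 for each) in wildtype retinas. Knockout replicate 2 was the lowest array for all 3.

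Clu, the secreted chaperone clusterin, was the late marker of middle rank. Its probe set 1437458_x_at had signals of 459.5, 195.5 and 298.5 in knockout retinas, against 632, 579 and 221 in wildtype retinas, where it ranked at the 83.3th percentile (SD 6.70, n = 3). Its spread among wildtype mice was the widest of the 7 genes that were above the median in all 3, and the low array was wildtype replicate 3.

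Aqp4, the water channel of glial endfeet, and Abca8a, a lipid transporter of the ABC family, were the late markers of low rank. Aqp4 had signals of 9.8, 4.3 and 1.0 in knockout retinas and 16.8, 1.4 and 9.2 in wildtype retinas on 1425382_a_at. Abca8a had 9.8, 0.5 and 13.9 in knockout retinas and 14.3, 34.2 and 0.9 in wildtype retinas. Neither was above the median of any array, and wildtype replicates of each differed by more than 10 times. At such signals the arrays give no order between the genotypes.

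Of the astrocyte markers, Pdgfra, the receptor through which astrocytes respond to platelet-derived growth factor, was well above the median. It had signals of 435, 3.6 and 250.2 in knockout retinas and 461, 499 and 349 in wildtype retinas on 1421917_at, at the 83.6th percentile (SD 0.900, n = 3) in wildtype retinas. Gfap, the astrocyte filament protein that mature Mueller glia make mainly under stress, lay near the median. It had 30.4, 0.9 and 33.9 in knockout retinas, against 66.2, 86.3 and 97.0 in wildtype retinas on 1426508_at, where it was above the median in wildtype replicate 3 only.

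**Figure D1:**
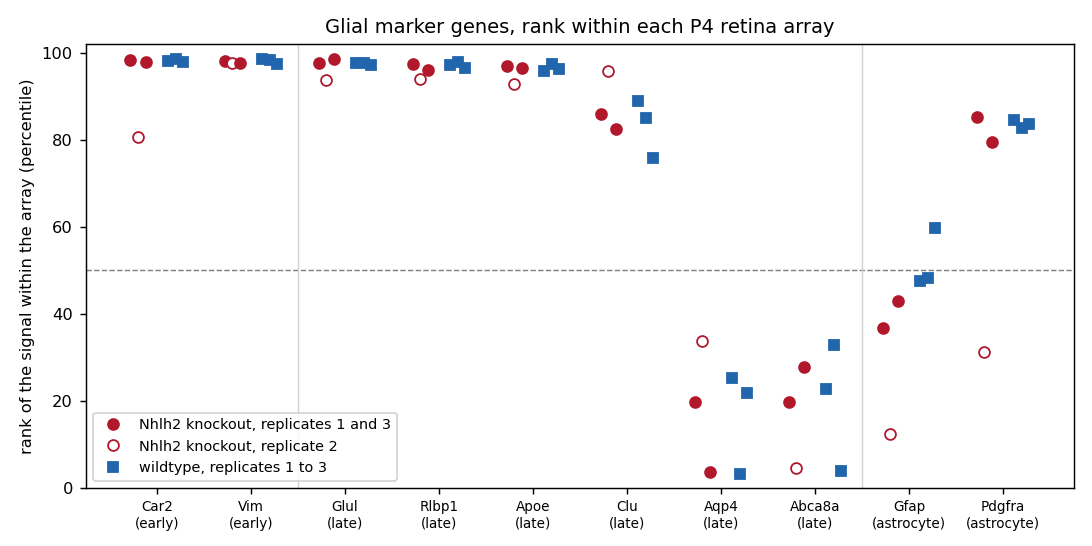
Rank of each gene's signal within each array (percentile of all probe sets, y axis) for 10 glial marker genes, with Nhlh2 knockout arrays (circles) left of wildtype arrays (squares), 1 point per mouse and the array median as a dashed line. Car2, Vim, Glul, Rlbp1 and Apoe sit near the top in wildtype arrays, Aqp4 and Abca8a below the median, and knockout replicate 2 (open circles) lies away from the others for Car2, Clu, Gfap and Pdgfra.

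By class, the median rank of the early markers was 98.3, 89.2 and 97.7 in knockout replicates 1, 2 and 3, and 98.3, 98.4 and 97.6 in wildtype replicates 1, 2 and 3. That of the late markers was 91.4, 93.2 and 89.2 in knockout retinas and 92.4, 91.2 and 86.0 in wildtype retinas. Early markers thus stood above late markers by 6.85, -4.00 and 8.49 percentile points in knockout retinas and by 5.89, 7.12 and 11.5 in wildtype retinas, or 8.18 ± 2.97 (SD, n = 3) in wildtype retinas. With 2 genes against 6 this is a description, and the difference lies within the late class: Glul, Rlbp1 and Apoe ranked close to Car2 and Vim, while Aqp4 and Abca8a did not. The sign turned in knockout replicate 2 only. The lower early marker was at 98.2, 80.7 and 97.6 in knockout retinas and at 98.1, 98.3 and 97.3 in wildtype retinas, and the highest late marker at 97.6, 95.8 and 98.6 in knockout retinas and at 97.6, 97.8 and 97.1 in wildtype retinas. On the highest probe set of each gene, the order of the classes was thus complete in every wildtype array and in knockout replicate 1. The margin was under 1 point each, and the order was not complete in knockout replicates 2 and 3. Vim 1450641_at kept the order in wildtype replicates 1, 2 and 3, at 98.6, 97.84 and 97.2. Vim 1456292_a_at did not, at 96.5, 95.96 and 95.4, below Glul 1426236_a_at in each. The order thus depends on the probe set that stands for Vim.

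Other genes of Mueller glia were also above the median. Of 14 measured genes of a list of 16, 13 were above it in all 3 wildtype arrays, the exception being Mlc1, a membrane protein of glial endfeet. The highest was Dbi, an acyl-CoA binding protein, at the 99.6th percentile (SD 0.0459, n = 3), followed by Dkk3, a secreted relative of Dickkopf proteins, at the 95.99th (SD 2.30, n = 3). The glutamate transporter Slc1a3 stood at the 90.2th (SD 1.37), and the potassium channel Kcnj10 at the 59.9th (SD 6.55, n = 3 for each). Of the astrocyte list, 4 of 9 measured genes were above the median in all 3 wildtype arrays: Aldoc, Gja1, Sox9 and Nes. The glutamate transporter Slc1a2, at the 44.9th percentile (SD 5.52), and the folate enzyme Aldh1l1, at the 29.6th (SD 2.83, n = 3 for each), were not. Progenitors also express Nes, and which cells of the whole retina gave the signals of this list was not tested. Gja1, a gap junction protein, and Aldh1a1, which makes retinoic acid, were highest in wildtype replicate 1, the array with high lens crystallins. Gja1 had 208, 17.1 and 249 in knockout retinas and 1190, 431 and 231 in wildtype retinas. The part of lens tissue in these signals, and in that of Vim, which lens cells also express, was not tested. Of 7 measured pigment epithelium genes, 5 were above the median in all 3 wildtype arrays. Ttr was at the 98.9th percentile (SD 0.168, n = 3), and Rgr is on both this list and that of Mueller glia. The part of pigment epithelium in the signals of Rlbp1 and the other Mueller glia genes was not tested.

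**Figure D2:**
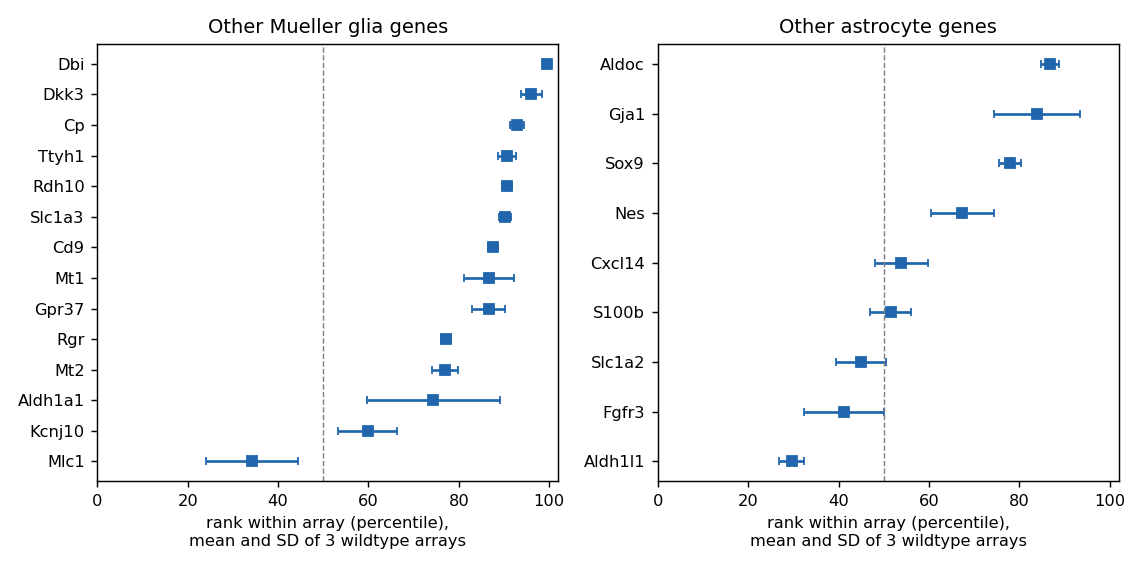
Rank within the array (percentile of all probe sets, x axis) of other Mueller glia genes (left) and other astrocyte genes (right) in wildtype P4 retina, as the mean (square) and SD (bar) of 3 arrays, with the array median as a dashed line. Of the Mueller glia genes 13 of 14 were above the median in every array, and of the astrocyte genes 4 of 9.

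No member differed between the genotypes by the test across all probe sets. A constant of 1 was added, and values were log2 transformed and then quantile-normalized. The limma fit covered probe sets above the array median in at least 3 of 6 arrays. Of the members, 14 probe sets of 7 genes passed this filter, while those of Aqp4, Abca8a and Gfap did not. At a Benjamini-Hochberg adjusted p under 0.05 (limma), 0 of 11610 probe sets (0%) were called and 0 of the 14. At an unadjusted p under 0.05, 14 of all probe sets (0.121%) were called with 6 arrays, and 92 of 11324 (0.812%) without knockout replicate 2, and again 0 of the 14 in either case. The smallest adjusted p of a member was 0.742 with 6 arrays and 0.99995 without that array.

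The median log2 difference, knockout minus wildtype, over the 14 probe sets was -0.15 (range -1.39 to 0.62), with 9 lower and 5 higher, and that of all tested probe sets was -0.11. Without knockout replicate 2 it was -0.07 (range -0.59 to 0.33), with 8 lower and 6 higher, against 0.0037 for all tested probe sets. The median standard error of a member fell to 0.23 without that array, against 0.50 with it. In normalized values, knockout replicate 2 was the lowest of the 6 arrays for 9 of the 19 probe sets and the highest for 6.

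Car2 differed by -1.02 on the log2 scale with 6 arrays (95% interval -3.13 to 1.09) and by 0.0015 without knockout replicate 2 (-0.49 to 0.49). The difference was near 0 once that array was left out. Vim differed by -0.13 (-0.87 to 0.61) and by -0.08 without it (-0.66 to 0.50), while it was 0.012 without wildtype replicate 1, the array with high lens crystallins. On 1450641_at Vim differed by -0.77 (-2.30 to 0.75) and by -0.10 without knockout replicate 2 (-0.72 to 0.53). Another of its probe sets, 1456292_a_at, was lower in all 3 littermate pairs, by -0.26, -0.19 and -0.03. The sign of pair 2 turned to 0.50 with centring of each array at its 75th percentile and to 0.06 with scaling to a common trimmed mean.

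Glul differed by -0.13 (-1.32 to 1.06) with 6 arrays and by 0.33 (-0.21 to 0.87) without knockout replicate 2. Within pairs it was -0.0051, -1.21 and 0.81 on 1426236_a_at, so it was near 0 in pair 1 and higher in the knockout in pair 3. On 1426235_a_at it was 0.08, -1.06 and 0.46. Rlbp1 differed by -0.41 (-1.29 to 0.48), and by -0.14 without that array (-0.72 to 0.44). Apoe differed by -0.26 (-1.19 to 0.66), and by 0.05 without it (-0.48 to 0.57). Differences of these 3 late markers thus lay on either side of 0 once that array was left out.

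Clu was the member with the largest positive difference, 0.62 (-0.87 to 2.11), which was 0.03 without knockout replicate 2 (-0.85 to 0.92). Within pairs 1 and 3 it was -0.35 and 0.52. The Clu probe sets 1418626_a_at, 1437689_x_at and 1454849_x_at differed by 0.07, 0.48 and 0.41 with 6 arrays. Without knockout replicate 2 they differed by 0.05, -0.07 and -0.13. Pdgfra had the largest negative difference among tested members, -1.39 (-3.99 to 1.21), which was -0.11 without that array (-0.62 to 0.41). Both values came mainly with 1 array. On these probe sets, the intervals without it still reach to -0.62 on the log2 scale for Pdgfra and to 0.92 for Clu. The second Pdgfra probe set, 1421916_at, ranked near the median in wildtype retinas and had a wider interval without that array. It differed by 0.04 (-1.84 to 1.93) with 6 arrays and by -0.59 (-2.20 to 1.03) without knockout replicate 2.

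Gfap was the only member whose normalized signal was lower in all knockout arrays than in all wildtype arrays. On probe set 1426508_at the normalized log2 values averaged 3.92 ± 1.61 in knockout retinas and 5.76 ± 0.49 in wildtype retinas (SD, n = 3 each), a difference of -1.84. Without knockout replicate 2 it was -0.98. Within littermate pairs 1, 2 and 3 it was -0.86, -3.42 and -1.22. It was lower in all 3 pairs under each of 4 treatments of the signals, with the unscaled signals among them. Of all probe sets, 3.28% lay lower in all 3 knockout arrays than in all 3 wildtype arrays, and 11.3% were lower in all 3 pairs. Among the 19 probe sets these counts were 1 and 2.

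Gfap did not pass the test. An exact two-sided permutation test gave p = 0.1, the smallest that 3 against 3 arrays allow. Any probe set whose groups do not overlap gives this value, so it adds nothing to the order described above. With no filter on dim probe sets, limma gave an unadjusted p of 0.0646 and an adjusted p of 0.820. With no filter and without knockout replicate 2, a fit added after the data were seen, the unadjusted p was 0.0564 (95% interval of the log2 difference -2.0 to 0.04) and the adjusted p 0.99996. The second probe set, 1426509_s_at, had signals of 6.4, 12.3 and 22.2 in knockout retinas and 31.7, 32.5 and 46.8 in wildtype retinas. On normalized values its difference was -1.92 and -0.88 in pairs 1 and 3 but 2.12 in pair 2, and the groups overlapped. They did not overlap in the signals as deposited, which were not scaled between arrays. In those signals knockout replicate 2 was the lowest array for 16 of the 19 member probe sets, so they cannot set that array against wildtype. A lower Gfap level in the knockout was thus not established. Even for a real difference, whole retina could not tell fewer astrocytes from less Gfap RNA per cell.

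Pdgfra, the other astrocyte marker, did not show this order. On 1421917_at it differed by 0.07, -3.87 and -0.37 within pairs 1, 2 and 3. Of 9 other astrocyte genes measured, 6 were lower in the knockout with all 6 arrays and 7 without knockout replicate 2, where 48.2% and 49.2% of all probe sets were lower. Those that passed the filter numbered 6 with all arrays, with a median of -0.16, and 5 without that array, with 2 higher, 3 lower and a median of -0.09, and 0 had an unadjusted p under 0.05 in either fit. The 4 that did not pass without it were S100b, Fgfr3, Aldh1l1 and Slc1a2, at -0.43, -0.56, -0.42 and -0.20, and, as for Gfap, their signals lay near or below the array median. Among those tested, Nes, an intermediate filament protein of progenitors and young astrocytes, differed by 1.004 with all arrays (SE 0.63) and by 0.36 without that array (SE 0.32). Within pairs 1, 2 and 3 it was 0.53, 2.54 and -0.06. Gja1, highest in the array with high lens crystallins, differed by -1.05 (SE 0.63) and -0.86 (SE 0.62). Within pairs it was -2.50, -0.84 and 0.20. Pdgfa, the ligand that neurons supply to Pdgfra, was below the median in all 3 wildtype arrays and was not tested. It had signals of 5.4, 35.6 and 43.4 in knockout retinas and 43.9, 74.6 and 52.4 in wildtype retinas.

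**Figure D3:**
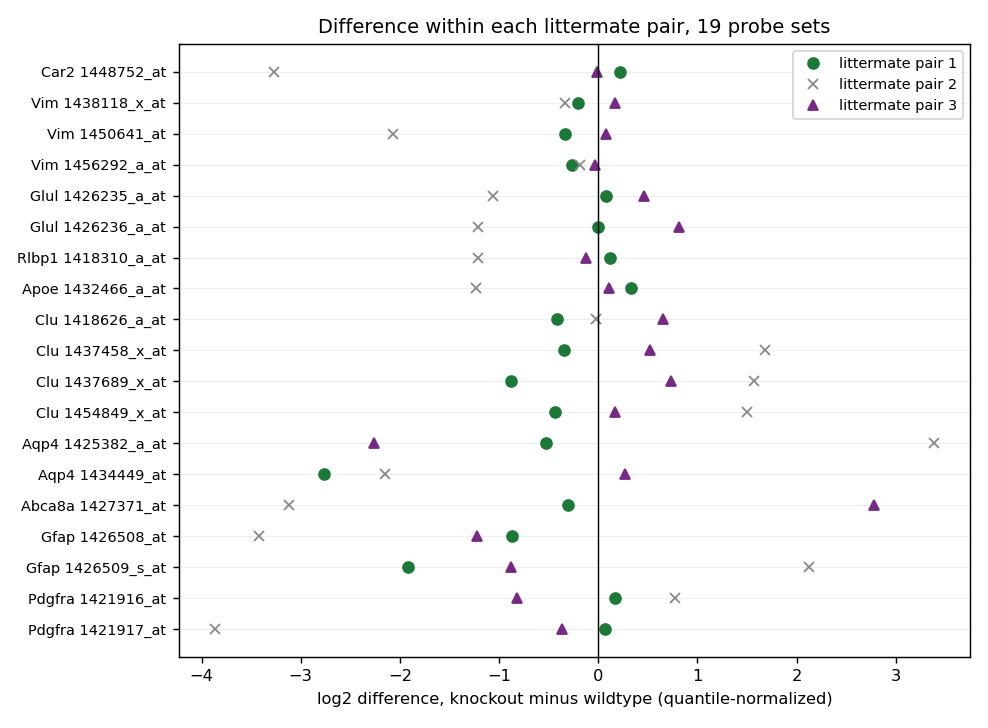
Log2 difference, knockout minus wildtype, of quantile-normalized signal (x axis) within littermate pairs 1 (circles), 2 (crosses) and 3 (triangles) for each of the 19 probe sets (y axis). Pair 2, which holds knockout replicate 2, spreads from -3.87 to 3.39, and Gfap 1426508_at and Vim 1456292_a_at are the only probe sets below 0 in all 3 pairs, Vim not under centring or trimmed mean scaling.

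Of the 19 probe sets, 13 had opposite signs in pairs 1 and 3, against 50.8% of all probe sets, and 4 were lower in the knockout in both, against 23.8%. The other 2, Apoe and Glul 1426235_a_at, were higher in both. With pair 2 included, 2 were lower and 0 higher in all 3 pairs, against 11.3% and 13.5%. The 4 that were lower in pairs 1 and 3 were both Gfap probe sets, Vim 1456292_a_at and Aqp4 1425382_a_at, and they were named after their values were seen.

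Genes with several probe sets showed where knockout replicate 2 departed. In the other 5 arrays the signal of Vim 1450641_at was 0.862 to 1.03 times that of 1438118_x_at, and it was 0.152 times in knockout replicate 2. For Clu the ratio of 1418626_a_at to 1437458_x_at was 0.0910 in it, against 0.336 to 0.540 in the others, and for Gfap that of 1426509_s_at to 1426508_at was 13.7, against 0.211 to 0.655. For Pdgfra the ratio of 1421916_at to 1421917_at was 4.31, against 0.0604 to 0.244. Smaller departures in knockout replicate 2 were those of Vim 1456292_a_at, at 0.430 against 0.531 to 0.629, and of Clu 1437689_x_at and 1454849_x_at. The latter were at 0.691 and 0.701, just below the lowest values of the other arrays, 0.705 and 0.712. Different probe sets of a gene thus gave different changes in that array, while those of Glul kept their ratio, with 0.141 against 0.110 to 0.197. The 3′ to 5′ ratio of Actb in this array is given above, and its part in these values was not tested.

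**Figure D4:**
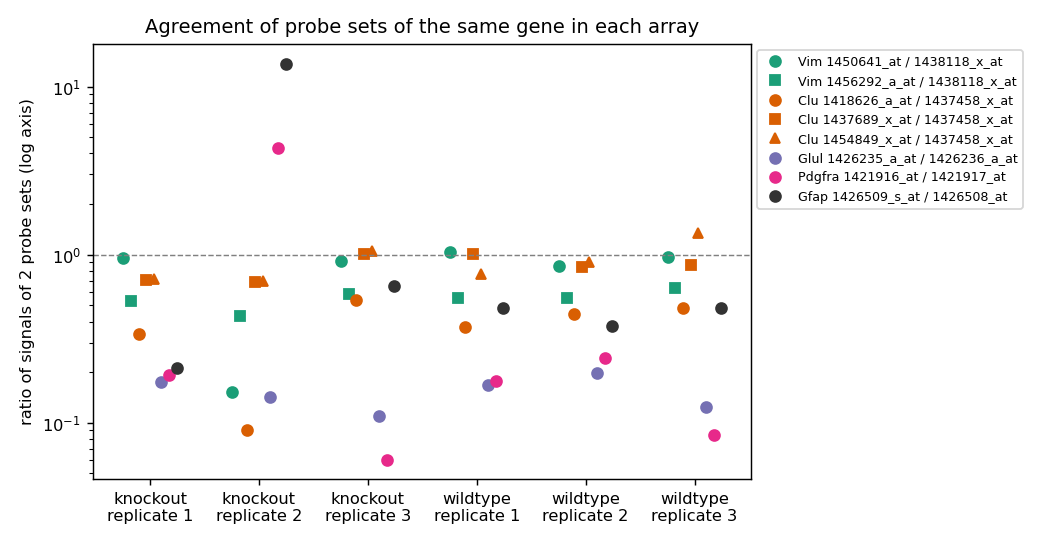
Ratio of the signals of probe sets of the same gene (y axis, log scale) in each of the 3 knockout and 3 wildtype arrays (x axis), 1 colour per gene. In knockout replicate 2 the ratios of Gfap (13.7) and Pdgfra (4.31) lie above, and those of Vim 1450641_at (0.152) and Clu 1418626_a_at (0.0910) below, the range of the other 5 arrays. Those of Vim 1456292_a_at (0.430), Clu 1437689_x_at (0.691) and Clu 1454849_x_at (0.701) also lie below that range, by less.

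Genes that act with the members in glutamate and lipid handling were measured as well. Of 7 measured genes of glutamate handling, 5 were above the median in all 3 wildtype arrays, among them Glul and Slc1a3. Of these, 5 were tested, with 0 called and a median log2 difference of -0.45, or 0.0088 without knockout replicate 2. Of 8 measured genes of apolipoprotein and lipid handling, 5 were above the median and tested, with 0 called and medians of 0.16 and 0.03. They were Apoe, Clu, the cholesterol transporters Abca1 and Abcg1 and the receptor Lrp1. Abca1, which loads lipid onto Apoe, differed by -0.80 with all arrays (SE 0.48) and by -0.31 without knockout replicate 2 (SE 0.22), with 0.10 in pair 1 and -0.68 in pair 3. The other Mueller glia genes had 13 tested, 0 called and medians of -0.13 and 0.0027, with 7 higher and 6 lower without that array.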

How the data were processed

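The authors hybridised RNA from P4 retinas to Affymetrix GeneChip mouse arrays and deposited 1 intensity per probe set and array, on a linear scale, made with the MAS5 algorithm. Trimmed means differed between arrays, which shows that no scaling to 1 level was applied. The scaling target is not given in the sources used here. The platform annotation table paired 20380 of 22626 probe sets with 1 symbol and 691 with several, did not list 1555, and paired none with Nhlh2. The 64 control probe sets were left out.

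Values were log2 transformed after adding 1, then quantile-normalized, and tested with limma 3.58.1 in R 4.3.3 on all 6 arrays. The litter was not a term, and probe sets above the array median in at least 3 arrays were tested. The Benjamini-Hochberg adjustment covered all tested probe sets. The fit was run on simulated data modelled on the arrays other than knockout replicate 2, so the simulation does not cover an array like that one. Alternatives changed the scaling, the constant, the filter and the litter block, and left out each array. Same-numbered mice are littermates by the design, and their deviations from the group means correlated with r = 0.271, -0.164 and 0.125 for pairs 1, 2 and 3. No count or depth applies to arrays, and their number limits the precision.

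The members, gene lists and alternatives were chosen with earlier results of these data known. Named genes are all members, the highest and lowest of the other lists, any called gene, and, after their values were seen, a few more genes of these lists. The highest probe set by the mean over 6 arrays stands for a gene.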

Additional observations from a re-analysis of the deposited data

How the results depend on the processing

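The count of called probe sets was 0 under all 17 alternatives, with 3 to 817 at an unadjusted p under 0.05, and the lowest adjusted p of a member's highest probe set in any alternative was 0.448. Without the filter 539 probe sets, with a filter on the mean 159, without knockout replicates 1, 2 and 3 in turn 285, 92 and 24, and without wildtype replicates 1, 2 and 3 in turn 8, 3 and 3 had an unadjusted p under 0.05, against 14 in the main analysis. With the litters as a block, 14 did. The block without knockout replicate 2 also drops its wildtype littermate, so only pairs 1 and 3 remain, and 392 did. The block changed no call. With the signals as deposited the median difference of the members was -1.31, that of all probe sets -1.38, and Clu was at -0.53.

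The direction of small differences was not stable. Leaving out 1 array gave a member median of -0.32 to -0.07, with -1.65 to 0.0015 for Car2, -0.32 to 0.012 for Vim, -0.53 to 0.33 for Glul and -0.47 to 0.048 for Apoe. With the litter block on pairs 1 and 3 only, Car2 was at 0.10, Glul at 0.38 and Apoe at 0.21. With 75th percentile centring and without knockout replicate 2 they were at 0.017, 0.34 and 0.069. With no filter and without it, they were at 0.0015, 0.33 and 0.048. Centring gave 0.24 for Vim and 0.029 for Glul, and trimmed mean scaling 0.11 for Vim. Gfap ranged from -2.70 to -0.98 over all alternatives. The cause was not tested.

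With plain _at probe sets only, 3 of 6 member genes were above the median in all wildtype arrays, and the early markers stood 80.0 percentile points above the late ones, since Glul, Rlbp1, Apoe and Clu have no such probe set. Counting Rlbp1 as early gave 14.6, and leaving out 1 wildtype array 6.50 to 9.33. The 2 dimmest genes, Aqp4 and Abca8a, could not be compared at this signal.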

Other observations

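Genes of other retinal cell types, none of them called, were measured in the same arrays. Of 7 progenitor genes tested without knockout replicate 2, 7 were higher in the knockout, with a median log2 difference of 0.31. With all 6 arrays, 4 of these 7 were higher and 3 lower, with a median of 0.21. Of all probe sets, 49.2% and 48.2% were lower in these 2 comparisons. In pair 1, 0 of the 7 were higher (median -0.15), and in pair 3, 7 of 7 (median 0.65). Between these pairs 50.8% of all probe sets had opposite signs. The highest progenitor gene was Ccnd1, a cyclin of dividing cells, with signals of 2980.4, 2510.5 and 4831 in knockout retinas and 3605, 3028.5 and 4214 in wildtype retinas. Pigment epithelium genes had 5 tested, with 2 higher and 3 lower in both fits and a median of -0.03 with all 6 arrays and -0.06 without that array, and were 0 of 7 higher in pair 1 and 5 of 7 in pair 3. The median of 5 microglia genes was -0.35 with all 6 arrays and 0.11 without that array, so its sign turned. For 2 endothelial genes it was 0.46 and 0.08, for 2 oligodendrocyte genes -0.19 and -0.0040, and for 4 rod genes -0.07 and -0.05.

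No gene of the erythrocyte, fibroblast and pericyte or lens lists passed the filter. The summed normalized signal of the erythrocyte list was 28.6 to 67.1 in knockout retinas and 28.02 to 35.1 in wildtype retinas. That of the fibroblast and pericyte list was 72.4, 279 and 112 in knockout replicates 1, 2 and 3, and 185, 134 and 118 in wildtype replicates 1, 2 and 3. Of its 5 genes, 4 were lower in the knockout with all 6 arrays and 5 without knockout replicate 2. Of all probe sets, 48.2% and 49.2% were lower in these 2 comparisons. Within pairs, 0 of 5 were higher in pair 1 and 3 of 5 in pair 3.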
